A study of Mus musculus with 24 samples.

Results

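The second hour after antigen removal in WT mouse basophils was examined by setting 3 libraries taken 2 h after the wash (WT 2 h) against 3 libraries taken 1 h after it (WT 1 h). These are 6 of the 24 libraries of the series, and they were chosen by the genotype and time in their labels, so that no measured value entered the choice. The cells were bone marrow cells of WT mice grown for 7 days with 0.3 ng/mL IL-3, a cytokine that drives basophil growth. IgE against the hapten TNP (1 µg/mL) and the uridine analogue 4-thiouridine (s4U, 150 µM) were added on day 6, CD49b+ cells were enriched with magnetic beads on day 7, and TNP-OVA (10 ng/mL) cross-linked the bound IgE for 1.5 h with s4U present. The cells were then washed and kept without antigen and s4U for 0, 1, 2 or 4 h. TTP-KO cells, from mice lacking tristetraprolin (the product of Zfp36), went through the same steps, giving 8 groups of 3 libraries. All groups, 0 h included, had therefore met IgE, antigen and s4U. The labels used here give neither the age of the mice nor the allele, and they do not tie libraries to separate mice or cultures. The p-values below thus measure the spread between libraries, which may be technical. Libraries are named by genotype, time and the letter of their column (A, B or C).

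Basophils carry IgE on the high-affinity receptor FcεRI, and antigen that cross-links it starts calcium, MAP kinase and NF-κB signalling. Cells then release histamine and transcribe immediate early genes and, in basophils, large amounts of the type 2 cytokines IL-4 and IL-13 and of chemokines. Many of these mRNAs are short-lived, and AU-rich elements in their 3′ UTR can bind tristetraprolin and its relatives, which recruit the deadenylation machinery. Total mRNA after the antigen is gone reflects both the transcription that goes on and the decay of what was made.

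Sequences around AU-rich motifs are shown for 8 genes, because the motif occurs in genes that fell, genes that rose and genes that did not pass the test during this hour. The windows of 30 bases come from the longest annotated 3′ UTR in GENCODE M21 (GRCm38, mRNA strand, 5′ to 3′). Capitals mark only the first TTATTTATT of the UTR where present and otherwise the first TATTTAT. Further copies within a window stay in lower case, as in Tnf, Pim1 and Il1b. Il13, Tnf, Ptgs2 and Acod1 were lower at 2 h, Il1b and Pim1 were higher, and Il6 and Osm did not pass the test.
Il13: cttcttgatcTTATTTATTatggttgtgtg
Tnf: tttgcacttaTTATTTATTatttatttatt
Ptgs2: ctgaccatatTTATTTATTtatgtgaagaa
Acod1: ttctgaggaaTTATTTATTaactctgggaa
Il1b: aaccacttaccTATTTATttatgtatttat
Pim1: tttaatgtatTTATTTATTtatttatttgg
Il6: tttatgattgaTATTTATtatttttatgaa
Osm: gcaagacacttTATTTATccgaatgtcagc
Counted from the first base after the stop codon, the windows start at base 296 of 741 in Il13, 428 of 764 in Tnf, 8 of 2445 in Ptgs2 and 240 of 1065 in Acod1. They start at base 193 of 459 in Il1b, 942 of 1365 in Pim1, 1415 of 1668 in Il6 and 576 of 1017 in Osm. The 3′ UTR of Tnf, which encodes the inflammatory cytokine TNF, holds TATTTAT at 8 overlapping or separate places, and that of Il13 at 1.

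The values are 3′ tag counts of total poly(A) RNA, given as CPM, counts per library size scaled with edgeR's TMM factors. The 6 libraries held 14689038 to 25372890 reads. The TMM factors, which correct for the make-up of a library, lay between 0.93 and 0.97 at 1 h and between 1.04 and 1.11 at 2 h, so that scaling moves with time. The basophil label was checked against 10 marker genes, whose summed level was 43038 to 44661 CPM at 1 h and 35458 to 37626 CPM at 2 h. Sums over the marker lists of other cells were 926 to 1079 CPM at 1 h and 845 to 888 CPM at 2 h for 20 monocyte and macrophage genes, and 4462 to 4978 and 3442 to 4218 CPM for 15 neutrophil genes. Mast cell genes (9 of 12 listed were in the table, and Cma2 had no reads) summed to 206 to 228 and 195 to 206 CPM. The sums of 13 erythroid and progenitor genes were 2826 to 3021 and 2461 to 2843 CPM, and those of 16 dendritic and B cell genes 458 to 529 and 394 to 442 CPM (Xcr1 and Siglech had no reads). The NK and T cell genes (14 of 15 listed were in the table) summed to 111 to 145 and 101 to 137 CPM; Cd3g, Cd8a, Cd4 and Klrb1c had no reads, while Trac had 8.64 to 9.82 and 3.11 to 5.96 CPM. The 9 eosinophil genes summed to 207 to 216 and 187 to 248 CPM. On the TMM scale, the sums of the basophil, monocyte and macrophage, neutrophil, and dendritic and B cell lists were lower at 2 h with no overlap between times. The TMM factors were higher at 2 h, so these gaps would be smaller with library size alone, where overlap was not tested. The part of other cells in the results below was not tested. In bulk RNA, fewer cells of a type and less RNA per cell cannot be told apart.

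On the TMM scale, 272 genes were lower and 90 higher at 2 h than at 1 h in WT basophils, out of 12936 tested (edgeR quasi-likelihood test, adjusted p under 0.05). The genes that fell included transcription factors of the antigen response, type 2 cytokines and chemokines, and those that rose included Il1b, Il4ra and Tnfrsf9. These are 2.10% and 0.696% of the genes tested. The median size of the change on the log2 scale was 0.86 among the lower genes and 1.03 among the higher ones. Of the lower genes, 102 fell by more than 1 on the log2 scale, 126 fell by between 0.5 and 1 and 44 by less. The 1 h and 2 h libraries did not overlap in 267 of the lower genes, all 90 higher ones and 2130 of the 12936 tested. A lack of overlap thus adds little to a call, and it was required of the genes named as largest rises or falls. Summed over the 272 lower genes, the mean level went from 196123 CPM at 1 h to 124064 CPM at 2 h. Over the 90 higher genes it went from 8820 to 15876 CPM. Both sets were chosen by their change in these libraries, so the direction of each sum follows from the choice. The balance of directions depended on the scaling. With library size alone and no TMM factors, the median of all genes moved to 0.15 and the test called 201 genes higher and 140 lower, that is 58.9% of calls higher in place of 24.9%. All 90 higher genes and 140 of the 272 lower ones passed under both scalings. Without WT 2 h A the counts were 55 higher and 178 lower.

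**Figure D1:**
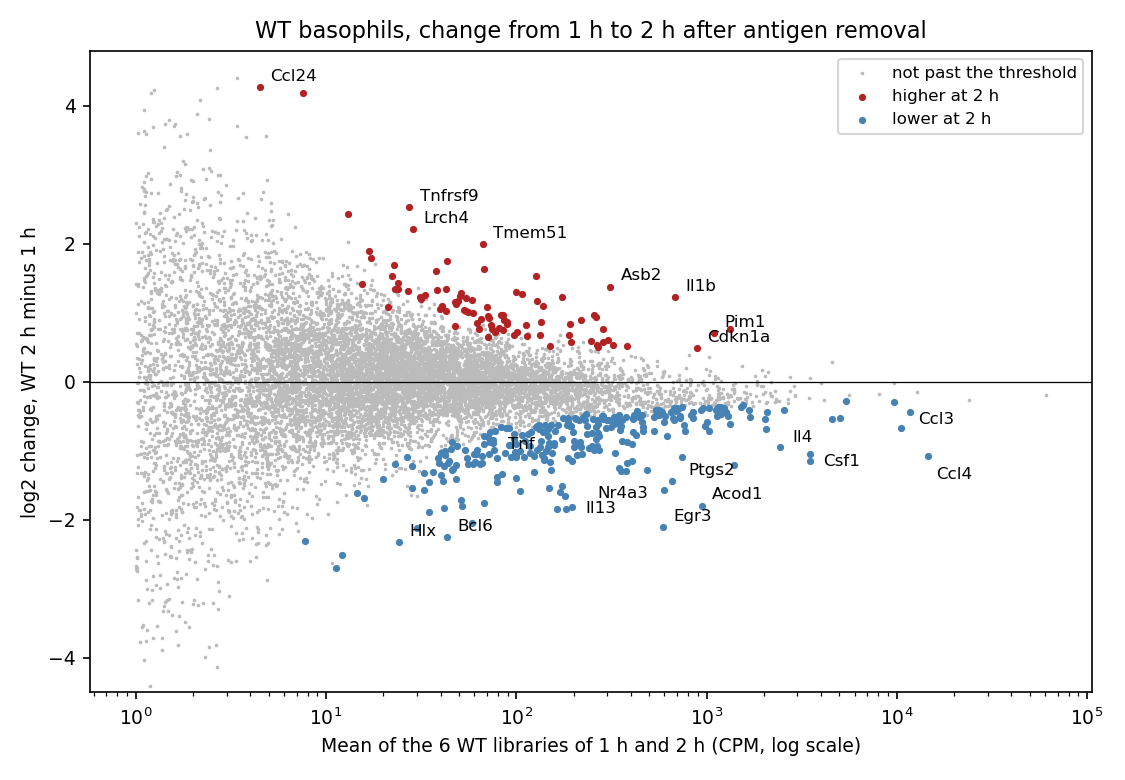
Each point is a gene with a mean of at least 1 CPM over the 6 WT libraries (horizontal axis, log scale) and its log2 change from 1 h to 2 h (vertical axis). Blue points were lower and red points higher at 2 h by edgeR's test; grey points did not pass, and 74 genes of low level lie outside the range drawn. The lower genes include Hlx at -2.32 and, far to the right, Ccl4 at -1.08 with a 1 h mean of 19833 CPM. The higher genes named include Tnfrsf9 at 2.53 and Cdkn1a at 0.49. The position of Ccl24, at 4.28, rests on the reads of WT 1 h C, since WT 1 h A and B had none.

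Several transcription factors that antigen receptors induce fell, and of those described here Egr3 was among the 12 largest falls named. Egr3, an early growth response factor downstream of calcium and NFAT, had 960, 883 and 1037 CPM in WT 1 h A, B and C and 198, 216 and 255 CPM in WT 2 h A, B and C. Every 2 h library was below every 1 h library, and Egr3 fell by 2.11 ± 0.12 on the log2 scale (edgeR, SE, adjusted p = 1.9e-18), to 0.232 of its 1 h mean. Nr4a3, an orphan nuclear receptor induced by antigen receptor signals, had 843, 894 and 953 CPM at 1 h and 250, 296 and 362 CPM at 2 h. It fell by 1.57 ± 0.17 (SE) on the log2 scale. Its relative Nr4a1 went from 587, 509 and 517 CPM to 175, 242 and 244 CPM, a log2 change of -1.29 ± 0.13 (SE), again with no overlap between times. Nr4a2 changed by -1.16 and Egr2 by -1.27 (a call lost with only the 6 libraries compared in the fit), while Egr1 changed by -0.70 ± 0.13 (SE), from 394 to 493 CPM at 1 h to 230 to 308 CPM at 2 h.

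Counts of list members here and below stand beside 2.10% lower and 0.696% higher over all tested genes, and no set test was run. Lists share members, so a gene can be counted in several of them. Of the 5236 genes with a mean of at least 20 CPM, 262 were lower and 82 higher. Over the 49 immediate early genes tested, 14 were lower and 1 higher, with a median log2 change of -0.40 beside 0 for all genes. The 1 higher member was Pim1, a kinase that promotes survival. Fosb, an AP-1 subunit, had 19.8, 6.98 and 32.0 CPM at 1 h and 2.22, 1.73 and 4.92 CPM at 2 h, a log2 change of -2.70 ± 0.66 (SE) that DESeq2 did not call. Dusp2, a nuclear MAP kinase phosphatase, went from 91.3 to 116 CPM down to 26.6 to 33.5 CPM (-1.76 ± 0.43, SE), and this call was also absent in DESeq2. Plk3, an inducible kinase of the stress response, changed by -1.28. Fos itself was at 14.4 to 19.1 CPM at 1 h and 4.85 to 13.3 CPM at 2 h and did not pass the test (-0.92 ± 0.62, SE, edgeR adjusted p = 0.57). Without TMM factors 12 members were lower and 2 higher.

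Bcl6, a repressor best known from germinal centre B cells, had 79.4, 66.8 and 67.9 CPM at 1 h and 6.15, 22.7 and 16.4 CPM at 2 h (log2 change -2.25 ± 0.35, SE). Hlx, a homeobox factor, had 36.7, 34.4 and 50.0 CPM at 1 h and 0.837, 15.4 and 8.14 CPM at 2 h, a log2 change of -2.32 ± 0.49 (SE). The 2 h libraries of Hlx spread widely, and with only the 6 libraries compared in the fit its call was lost. Satb1, a chromatin organiser of lymphocytes, fell from 903, 1030 and 1088 CPM to 467, 424 and 537 CPM, a log2 change of -1.08 ± 0.12 (SE).

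Among secreted ligands, 8 of 34 tested cytokines and chemokines were lower (Il13, Csf1, Lif, Ccl4, Il4, Tnf, Ccl3 and Cxcl2) and 2 were higher (Il1b and Ccl24), and the median over the list was -0.30. The type 2 cytokine Il13 had 304, 294 and 324 CPM in the 1 h libraries and 57.8, 121 and 84.3 CPM in the 2 h libraries. Every 1 h library was far above every 2 h library, and it fell by 1.81 ± 0.20 on the log2 scale (edgeR, SE, adjusted p = 6.3e-09). Il4, the other type 2 cytokine, had 3923, 2767 and 2894 CPM at 1 h and 1417, 1858 and 1729 CPM at 2 h. It fell by 0.94 ± 0.11 (SE) on the log2 scale, with WT 1 h A standing above the other 1 h libraries.

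The growth factor Csf1, which supports macrophages, had 4674, 4978 and 4856 CPM at 1 h and 2140, 2038 and 2355 CPM at 2 h (log2 change -1.15 ± 0.09, SE). The chemokine Ccl4 had 23015, 17196 and 19288 CPM at 1 h and 7869, 10478 and 9871 CPM at 2 h (-1.08 ± 0.10, SE). Ccl3, a related chemokine, went from 12240, 13883 and 12837 CPM to 8289, 6790 and 9473 CPM (-0.67 ± 0.09, SE). The 1 h and 2 h libraries of these 3 genes did not overlap. Tnf had 218, 200 and 202 CPM at 1 h and 131, 96.5 and 101 CPM at 2 h, a log2 change of -0.92 ± 0.15 (SE). The neutrophil chemokine Cxcl2 changed by -0.61 ± 0.10 (SE). Lif, an IL-6 family cytokine, went from 114 to 142 CPM down to 53.8 to 63.2 CPM (log2 change -1.09). Areg, an EGF receptor ligand, had 744, 608 and 754 CPM at 1 h and 518, 527 and 605 CPM at 2 h. Its libraries were apart, but its log2 change of -0.35 ± 0.11 (SE) did not pass the test (edgeR adjusted p = 0.077).

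Il1b went the other way. This pro-inflammatory cytokine had 419, 428 and 375 CPM in WT 1 h A, B and C and 1062, 833 and 978 CPM in WT 2 h A, B and C. The lowest 2 h library was well above the highest 1 h library, and Il1b rose by 1.23 ± 0.14 (SE) on the log2 scale, 2.35-fold over the 1 h mean. Ccl24, an eosinophil chemokine, had no reads in WT 1 h A and B (where 3 reads would be 0.193 and 0.177 CPM, for counting error only), 1.37 CPM in WT 1 h C, and 9.21, 7.49 and 8.85 CPM at 2 h (edgeR adjusted p = 0.00045, not called with only the 6 libraries compared in the fit). The size of its change is poorly fixed, with fitted log2 changes of 3.66 to 10.19 when single libraries were left out. Il6, another acute cytokine, had 2132, 1832 and 1929 CPM at 1 h and 1980, 2056 and 2198 CPM at 2 h. These libraries overlapped, and its log2 change was 0.08 ± 0.09 (SE, edgeR adjusted p = 0.83). Oncostatin M (Osm) had 980, 924 and 800 CPM at 1 h and 1189, 970 and 1323 CPM at 2 h, a log2 change of 0.36 ± 0.11 (SE, edgeR adjusted p = 0.064).

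**Figure D2:**
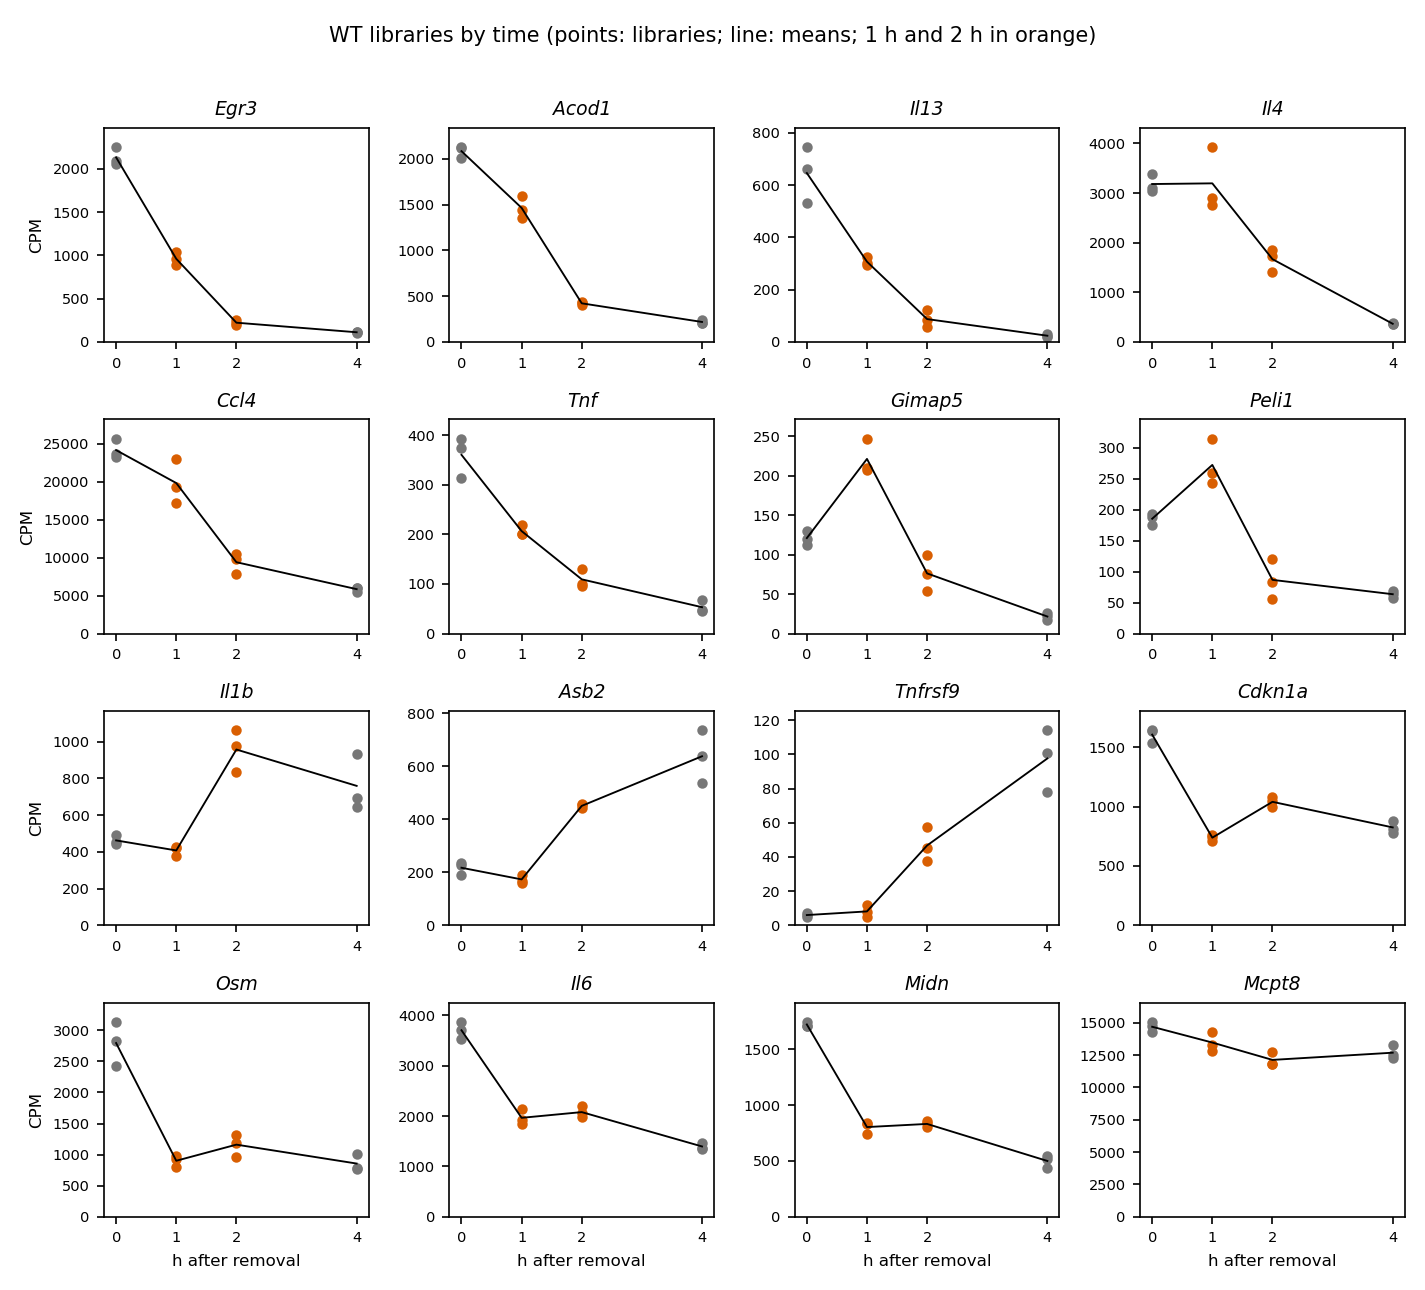
Each panel shows 1 gene in the 12 WT libraries, with CPM on a vertical axis that starts at 0 and hours after antigen removal on the horizontal axis; points are libraries, the line joins the means of 3, and 1 h and 2 h are in orange. Egr3, Acod1, Il13, Il4, Ccl4 and Tnf drop between 1 h and 2 h; Il1b, Asb2 and Tnfrsf9 climb in that hour; Osm, Il6 and Midn drop in the first hour and have no fall past the threshold in the second.

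Other genes with large falls encode enzymes, receptors and inhibitors. Acod1, the enzyme that makes itaconate, had 1358, 1443 and 1595 CPM at 1 h and 405, 420 and 442 CPM at 2 h. Its 2 h libraries were close together, at 0.288 of the 1 h mean (log2 change -1.79 ± 0.10, SE). Ptgs2, the inducible cyclooxygenase of prostaglandin synthesis, had 843, 1078 and 969 CPM at 1 h and 336, 291 and 439 CPM at 2 h (-1.44 ± 0.14, SE). Serpinb2, an inhibitor of plasminogen activators, went from 212, 279 and 276 CPM to 72.8, 77.3 and 64.7 CPM (-1.84 ± 0.16, SE). These 3 genes had no overlap between times, which genes named as largest falls, here Acod1 and Serpinb2, had to meet.

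Receptors with large falls were Htr1b, a serotonin receptor, from 84.1 to 106 CPM down to 13.7 to 34.1 CPM (log2 change -2.04), and Gpr183, an oxysterol receptor that guides migration (-1.89). Hcar2, the hydroxycarboxylic acid (niacin) receptor, changed by -1.82, and Havcr2, the inhibitory receptor TIM-3, by -1.15. Slco4a1, an organic anion transporter, changed by -1.84 and the GTPase Gimap6 by -2.12. Alox15, a lipoxygenase, went from 53.3 to 84.0 CPM to 23.9 to 30.0 CPM (-1.26). Among 29 cytokine and chemokine receptor genes tested, 1 was higher and 3 were lower, with a median of 0.10. The higher one was Il4ra, the shared receptor chain for IL-4 and IL-13, which had 28.7, 35.9 and 42.9 CPM at 1 h and 86.8, 76.4 and 81.4 CPM at 2 h. It rose by 1.19 ± 0.26 (SE) on the log2 scale while mRNA for its ligands Il4 and Il13 fell. Cxcr4, the CXCL12 receptor, changed by -0.79 and Il6ra by -1.30. Il1rl1, the IL-33 receptor, changed by -0.41. The call for Il6ra was lost without WT 2 h A or WT 2 h B, and that for Il1rl1 without WT 1 h B, WT 1 h C or WT 2 h B and with library size alone. Without TMM factors 3 members of the receptor list were higher and 2 lower.

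Signal regulators moved in both directions. Of 21 NFAT and calcium pathway genes tested, 7 were lower (Egr3, Il13, Ptgs2, Nr4a1, Egr2, Il4 and Orai1) and 2 higher (Tnfrsf9 and Cd69), with a median of -0.13. The median was 0.04 with library size alone, which left these 2 counts at 7 and 2. Of the lower genes, Egr3, Nr4a1 and Egr2 were already counted among the immediate early genes, and Il13 and Il4 among the cytokines. Orai1, the pore of the store-operated calcium channel, went from 309, 397 and 332 CPM to 196, 163 and 189 CPM (log2 change -0.92 ± 0.16, SE). Of 25 genes for signal feedback, Dusp2, Spry2 and Rgs2 were lower and Socs1 was higher. Spry2, an inhibitor of receptor kinase to ERK signalling, fell from 335 to 379 CPM to 150 to 207 CPM (-0.99). Rgs2, which shortens G protein signals, changed by -0.89. Socs1, the inhibitor of JAK kinases, had 240, 150 and 203 CPM at 1 h and 283, 342 and 267 CPM at 2 h (0.59 ± 0.16, SE). Its call was lost without WT 1 h B, WT 1 h C or WT 2 h B.

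Of 23 genes of NF-κB feedback, 3 were lower (Nfkbid, Rel and Irak3), none was higher and the median was 0.10. Nfkbid, a nuclear IκB protein, changed by -1.09 ± 0.21 (SE). The calls for the NF-κB subunit Rel (-1.03) and for Irak3 (-0.79), an inhibitor of IL-1 and Toll-like receptor signals, were both lost with library size alone. The call for Irak3 was also lost without WT 1 h B or WT 2 h A, and that for Rel without any single library other than WT 2 h C. The inhibitor genes Nfkbia, with 1265 to 1700 CPM at 1 h and 952 to 1377 CPM at 2 h, and Tnfaip3, with 81.8 to 92.7 and 43.8 to 78.9 CPM, did not pass (edgeR adjusted p = 0.099 and 0.53). Peli1 and Ripk2 act in the same pathways, as a ubiquitin ligase and a kinase of NOD receptors. Peli1 went from 259, 244 and 315 CPM to 56.6, 83.4 and 120 CPM (log2 change -1.65 ± 0.19, SE), and Ripk2 changed by -1.79 ± 0.34 (SE).

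The genes that rose included a T cell costimulatory receptor, an E3 ligase subunit, a kinase and membrane proteins. Tnfrsf9 (4-1BB), a TNF receptor family member induced by activation, had 12, 4.61 and 7.63 CPM in the 1 h libraries and 37.7, 57.3 and 45.0 CPM in the 2 h libraries. The 2 times were far apart, and Tnfrsf9 rose by 2.53 ± 0.38 (SE) on the log2 scale, 5.77-fold. Asb2, a substrate adaptor of a ubiquitin ligase, had 191, 161 and 167 CPM at 1 h and 443, 456 and 452 CPM at 2 h (1.38 ± 0.13, SE). Its 2 h libraries lay close together and far above those of 1 h. Tmem51, a membrane protein, went from 24.8, 30.7 and 24.5 CPM to 131, 96.5 and 91.5 CPM (2.00 ± 0.30, SE). Lrp12, an LDL receptor family member, had 49.0 to 85.5 CPM at 1 h and 185 to 193 CPM at 2 h (1.53 ± 0.17, SE).

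Camk1d, a calcium and calmodulin dependent kinase, rose by 1.75 on the log2 scale, from 15.1 to 25.9 CPM to 57.8 to 73.0 CPM. Coro2a, a coronin, changed by 1.64, Tex2 by 1.61, Camta2 by 1.69 and Lrch4 by 2.21. Sec23a, a subunit of the COPII coat of secretory vesicles, changed by 1.53, Agps, an enzyme of ether lipid synthesis, by 1.44 and Tbc1d13 by 1.35. These last 3 stood at 6.48 to 18.4 CPM at 1 h, and leaving out single libraries ended their calls (WT 1 h C or WT 2 h A for Sec23a, WT 1 h A, B or C or WT 2 h C for Agps, WT 1 h A or B or WT 2 h A for Tbc1d13). Camta2 lost its call without WT 1 h C. Cd69, an early activation antigen, went from 80.5, 88.9 and 94.9 CPM to 134, 140 and 148 CPM (0.67 ± 0.16, SE), a call that was lost without WT 1 h A.

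Survival, growth and metabolic genes also moved in both directions. Of 29 survival and apoptosis genes tested, 3 were higher (Pim1, Bcl2l1 and Bid) and 3 lower (Pim3, Pmaip1 and Bcl2l11). Pim1 had 914, 765 and 830 CPM at 1 h and 1449, 1273 and 1362 CPM at 2 h, a log2 change of 0.70 ± 0.11 (SE), while its relative Pim3 had 322, 304 and 354 CPM and then 149, 181 and 185 CPM (-0.93 ± 0.13, SE). The 2 kinases thus moved in opposite directions, each with no overlap between times. Bcl2l1, which encodes the anti-apoptotic BCL-XL, went from 47.7, 57.2 and 62.6 CPM to 105, 122 and 101 CPM (0.97 ± 0.19, SE). The BH3-only genes differed in sign: Bid changed by 1.35, Pmaip1 by -0.63 and Bcl2l11 by -0.43. Their calls were less firm: Bid lost its call without WT 1 h B or WT 1 h C, Pmaip1 without WT 1 h A or B or WT 2 h A or B, and Bcl2l11 without any single library other than WT 1 h B, while Pmaip1 and Bcl2l11 were also not called with library size alone. Cdkn1a, the cell cycle inhibitor p21, had 760, 741 and 714 CPM at 1 h and 999, 1044 and 1078 CPM at 2 h (0.49 ± 0.10, SE).

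Of 28 genes of glycolysis and the hypoxia response, Hk2 and Slc2a1 were higher and Ndrg1 and Gpi1 lower. Hk2, the inducible hexokinase, went from 69.4, 81.3 and 85.1 CPM to 197, 150 and 183 CPM (log2 change 1.17 ± 0.17, SE). Ndrg1, a stress-responsive gene, went from 421 to 469 CPM down to 207 to 234 CPM (-1.03 ± 0.15, SE). The glucose transporter gene Slc2a1 changed by 0.72 and Gpi1, a glycolytic isomerase, by -0.53, and both calls were lost without WT 1 h B, WT 1 h C or WT 2 h A. In the stress response, Sesn2, a nutrient sensor, rose by 1.29 ± 0.28 (SE) on the log2 scale, and Slc7a11, Calr, Hspa5 and Hsp90b1 were lower, out of 29 genes tested. The chaperone Hspa5 went from 1310 to 1511 CPM to 972 to 1047 CPM (-0.47). None of these 4 lower genes passed with library size alone, and Calr, an endoplasmic reticulum chaperone, also lost its call without WT 2 h A.

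**Figure D3:**
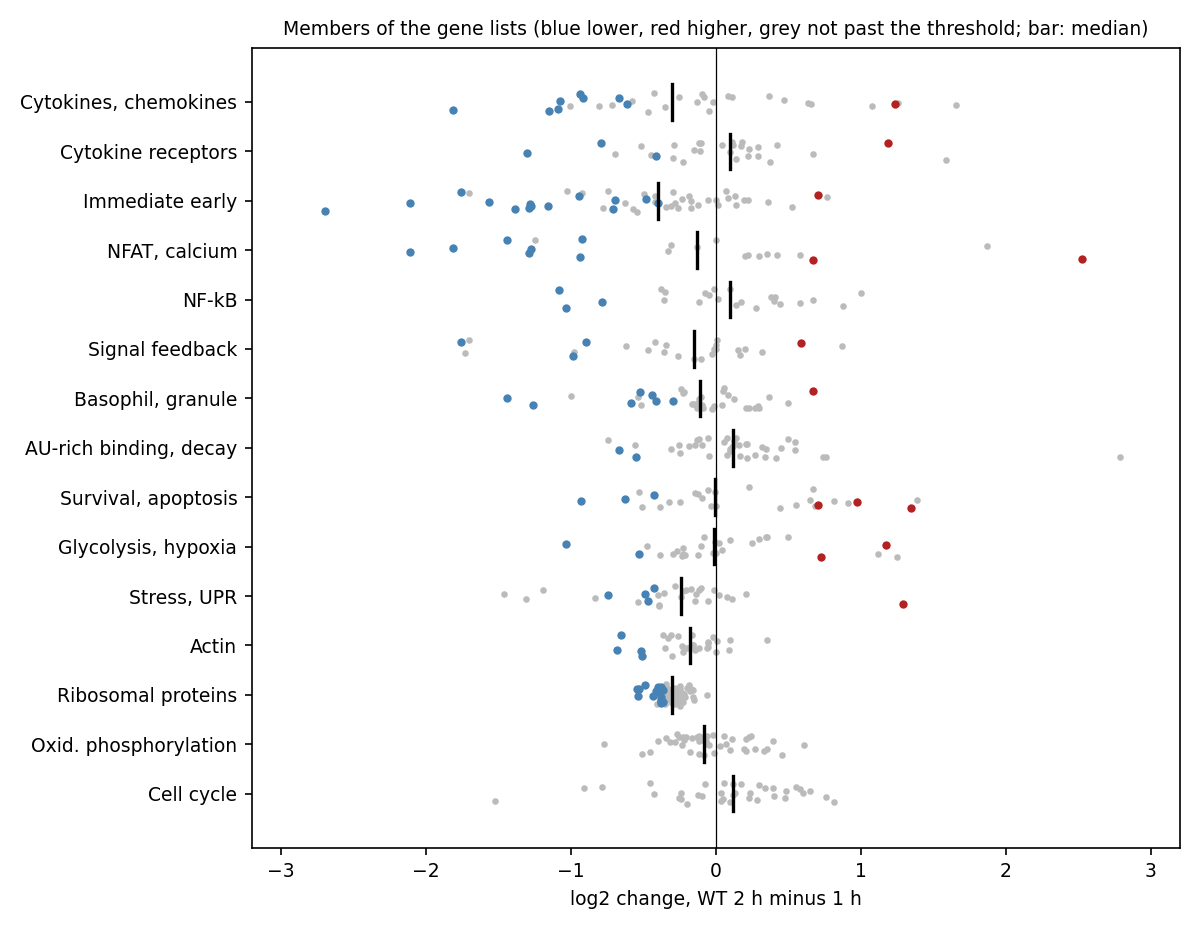
Each row is a list of genes and each point 1 tested member at its log2 change from WT 1 h to WT 2 h; blue and red points were lower or higher by edgeR's test, grey ones did not pass, the black bar is the median of the list, and 5 points lie outside the range drawn. The immediate early genes have their median at -0.40 and 14 blue points, and all ribosomal protein genes lie to the left of 0 in a narrow band.

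Small changes of abundant structural genes depended on the scaling. All 76 ribosomal protein genes tested had a negative sign, with a median of -0.31 and a range from -0.55 to -0.06, and 15 of them were lower. With library size alone none passed and their median was -0.14, against 0.15 for all genes, while DESeq2 called 23 lower. Ribosomal protein genes have many near-identical copies, and reads could be divided between them. Of 30 actin cytoskeleton genes, Vim, Vcl, Actg1 and Myl12b were lower and none was higher. Vim, the intermediate filament vimentin, went from 2182, 2780 and 2643 CPM to 1641, 1378 and 1727 CPM (-0.68 ± 0.10, SE). With library size alone 2 were lower and 1 higher. Vcl, which encodes vinculin, also lost its call without WT 1 h B or WT 2 h B. Actb, commonly used as a reference gene, had 57922 to 69538 CPM at 1 h and 50618 to 66206 CPM at 2 h and did not pass (-0.18 ± 0.10, SE, edgeR adjusted p = 0.45).

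Of 36 genes of basophil identity and granules tested, 7 were lower and 1 higher, with a median of -0.11, and with library size alone 2 were lower and 2 higher. The lower ones were Ptgs2, Alox15, Itgam, Gzmb, Hdc, Il1rl1 and Prss34, and the higher one was Cd69. Ptgs2, Il1rl1 and Cd69 were also counted in other lists above. Itgam (-0.58) lost its call with library size alone, with only the WT groups, and without WT 1 h B, WT 1 h C, WT 2 h A or WT 2 h B. Mcpt8, the basophil protease, had 14307, 13310 and 12800 CPM at 1 h and 11820, 12764 and 11810 CPM at 2 h. Its log2 change of -0.15 ± 0.07 (SE) did not pass and had the other sign (0.02) with library size alone. Hdc, the enzyme that makes histamine, had 13830, 12840 and 14044 CPM at 1 h and 9348, 11163 and 9496 CPM at 2 h, and it fell by 0.44 ± 0.09 (SE) on the log2 scale. Prss34, a basophil protease, changed by -0.30 ± 0.07 (SE). The calls for Hdc and Prss34 were lost with library size alone, and that for Prss34 also without WT 2 h A. Cpa3, a carboxypeptidase, and Fcer1a, the IgE-binding chain of the receptor, did not pass (edgeR adjusted p = 0.30 and 0.11). Fcer1a had 246, 312 and 203 CPM at 1 h and 220, 126 and 179 CPM at 2 h, with overlap.

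Of 40 genes for AU-rich element binding and mRNA decay, 2 were lower, none was higher and the median was 0.12. This count lies near the share over genes with a mean of at least 20 CPM (262 of 5236 lower). The lower ones were Zfp36l1, a relative of tristetraprolin (-0.67 ± 0.19, SE, edgeR adjusted p = 0.048), and the decapping factor Ddx6 (-0.55). Both calls were lost with library size alone. Zfp36l1 also lost its call without WT 1 h A, WT 1 h C, WT 2 h A or WT 2 h B, and Ddx6 without any single library other than WT 2 h A. Zfp36, which encodes tristetraprolin, had 147, 128 and 104 CPM at 1 h and 73.3, 74.5 and 78.8 CPM at 2 h. Its libraries did not overlap, but the log2 change of -0.74 ± 0.24 (SE) did not pass (edgeR adjusted p = 0.083). The third member, Zfp36l2, had 232 to 284 CPM at 1 h and 302 to 344 CPM at 2 h (0.34 ± 0.13, SE, edgeR adjusted p = 0.18).

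The second hour was then compared with the first hour in WT, by testing for each gene whether its log2 change from 1 h to 2 h differed from that from 0 h to 1 h. Both changes use the WT 1 h libraries, so a high or low 1 h value enters them with opposite signs. The difference was negative for 94 genes (0.727% of those tested) and positive for 51 (0.394%). Of the 94, 80 had a positive sign in the first hour and a negative one in the second, 8 were negative in both and 6 positive in both. Of the 51, 42 went from a negative to a positive sign. Without TMM factors the split was 66 negative and 59 positive, and positive calls made up 47.2% in place of 35.2%. Without WT 1 h A there were 52 negative and 31 positive, and without WT 1 h C 51 and 38.

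Several genes that did not fall in the first hour fell in the second. Il4 had 3045, 3388 and 3109 CPM at 0 h, so that its log2 change was 0.01 in the first hour and -0.94 in the second, and the difference passed (edgeR adjusted p = 0.003). Gimap5, a GTPase of lymphocyte survival, went from 113, 120 and 131 CPM at 0 h to 247, 210 and 207 CPM at 1 h and to 53.6, 75.2 and 99.9 CPM at 2 h. It was thus highest at 1 h, and the 2 changes differed by -2.41 on the log2 scale. Peli1 (difference -2.20), Satb1 (-1.40) and Havcr2 (-1.27) had first-hour changes of 0.55, 0.32 and 0.12 and fell in the second hour. Acod1 fell in both hours, by 0.51 and then by 1.79 on the log2 scale. Csf1 (-0.29, then -1.15) and Ccl4 (-0.29, then -1.08) also had a steeper second hour, with differences of -0.87 and -0.79. Chst11, a chondroitin sulfotransferase, had 24.1, 36.7 and 38.4 CPM at 0 h, 181, 188 and 160 CPM at 1 h and 269, 186 and 267 CPM at 2 h. Its rise was large in the first hour (2.42), and its second-hour change of 0.45 did not pass the test.

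Other genes fell in the first hour and had no called fall in the second. Osm had 2419, 2829 and 3131 CPM at 0 h, fell by 1.63 on the log2 scale in the first hour and changed by 0.36 in the second, a difference of 2.00 ± 0.20 (SE, edgeR adjusted p = 6.3e-09). Cdkn1a (-1.12, then 0.49) turned from a fall to a rise. Fosl2, an AP-1 subunit (-1.43, then 0.36), Il6 (-0.91, then 0.08) and Midn, which encodes midnolin (-1.10, then 0.05), had second-hour changes that did not pass the test. Plaur, the urokinase receptor, fell by 1.00 on the log2 scale and then changed by 0.48 (edgeR adjusted p = 0.083 for the second hour), with 118 to 122 CPM at 1 h and 153 to 175 CPM at 2 h. Egr1 fell in both hours, more in the first (1.69) than in the second (0.70), a difference of 0.99. Il13 (-1.07, then -1.81), Tnf (-0.80, then -0.92) and Ccl3 (-0.62, then -0.67) fell in both hours, and for these 3 the difference between the hours did not pass (edgeR adjusted p = 0.48, 1 and 1).

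The same hour was compared with that in TTP-KO cells, which share no library with the WT step. In TTP-KO 271 genes were lower (2.09%) and 119 higher (0.920%). Genes lower in both genotypes numbered 158, which is 58.1% of the WT list and 58.3% of the TTP-KO list, and 39 were higher in both (43.3% and 32.8%), and none was called in opposite directions. Of the 272 WT lower genes 266 had a negative sign in TTP-KO, with a median of -0.64 there beside -0.86 in WT, where they were chosen. Of the 90 WT higher genes 82 had a positive sign in TTP-KO, with a median of 0.62 there beside 1.03 in WT. The share of each sign over all tested genes was not counted. The Zfp36 transcript stood at 36 to 58.5 CPM in TTP-KO at 1 h and 27.1 to 51.1 CPM at 2 h, below the WT libraries. The tags lie at the transcript end, and whether the deleted part reaches there is not given in the labels used here, so that this is no check of the knockout.

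In the test of the difference between genotypes in this hour, edgeR called 0 genes (0% of those tested). The smallest adjusted p was 0.26, and 717 of 12936 genes had an unadjusted p under 0.05. DESeq2 called 75, of which 11 had a mean of at least 20 CPM, among them Il4, Il6, Tnf and Lrch4. Without WT 2 h B, edgeR called 18 genes, among them Il4, Tnf and Osm. The values for these genes follow, with the edgeR test of the difference on all libraries, which none of them passed.

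Il4 had 5809, 6110 and 6718 CPM in TTP-KO at 1 h and 5753, 4956 and 5254 CPM at 2 h, so that its log2 change was -0.22 in TTP-KO and -0.94 in WT. The difference was 0.71 ± 0.16 (SE, edgeR adjusted p = 0.26, DESeq2 adjusted p = 0.019). Tnf went the other way. It had 582, 619 and 590 CPM in TTP-KO at 1 h and 168, 152 and 192 CPM at 2 h, a log2 change of -1.81 beside -0.92 in WT. The difference was -0.89 ± 0.21 (SE, edgeR adjusted p = 0.26, DESeq2 adjusted p = 0.0026). Tnf thus had the larger level in TTP-KO at both times and the larger fall there. Il6 had 4400, 4348 and 3981 CPM and then 3289, 3032 and 3021 CPM in TTP-KO, a change of -0.45 that passed in that genotype, beside 0.08 in WT (difference -0.53 ± 0.12, SE, edgeR adjusted p = 0.26, DESeq2 adjusted p = 0.00014). Osm had 1683, 1676 and 1413 CPM and then 1560, 1287 and 1346 CPM in TTP-KO, a change of -0.19 beside 0.36 in WT, neither past the threshold (difference -0.55 ± 0.16, SE, edgeR adjusted p = 0.56, DESeq2 adjusted p = 0.091). Lrch4 changed by 0.18 in TTP-KO and by 2.21 in WT (edgeR adjusted p = 0.35 for the difference). Egr3 had 865, 1078 and 928 CPM and then 217, 209 and 219 CPM in TTP-KO, a change of -2.15 beside -2.11.

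**Figure D4:**
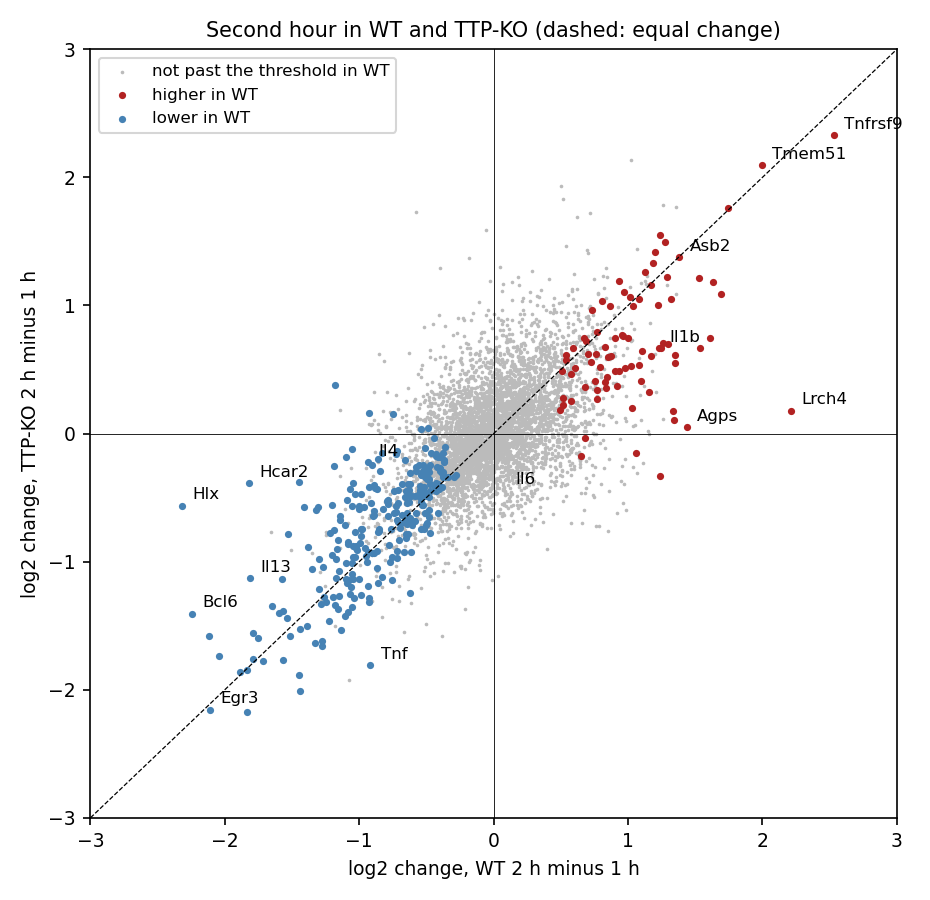
Each point is 1 of the 5236 genes with a mean of at least 20 CPM in the WT libraries of 1 h and 2 h, at its log2 change from 1 h to 2 h in WT (horizontal axis) and in TTP-KO (vertical axis); blue and red mark genes lower or higher in WT and the dashed line equal change. Egr3 and Tmem51 lie on the line, Il4, Hcar2 and Hlx above it on the side of a smaller fall in TTP-KO, and Tnf below it. Pearson's r across these genes, which are not independent, was 0.62. Over all 12936 tested genes, those of low level included, it was 0.066.

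The AU-rich motif occurred among genes of both directions. TATTTAT, searched on the mRNA strand only and with overlaps (it is also the core of TTATTTATT), was found in the longest 3′ UTR of 96 of the 272 lower genes (35.3%) and 35 of the 90 higher genes (38.9%). Over all tested genes with a 3′ UTR it was found in 3910 of 12818 (30.5%). TTATTTATT was found in 11% of the lower, 11.1% of the higher and 8.25% of all genes. Longer UTRs hold the motif more often, and the median length was 1357.5 bases for lower, 1674 for higher and 1354 for all genes. Among UTRs over 1500 bases the motif was present in 50% of the lower, 50% of the higher and 47.5% of all genes. Among those over 500 and up to 1500 bases the shares were 28.7%, 25.9% and 21.7%. Among those of 1 to 500 bases it was present in 5 of 47 lower genes (10.6%) and 2 of 11 higher genes (18.2%). There it was present in 171 of 2646 genes overall tested (6.46%). In each band the shares of lower and higher genes lay above that of all genes, which was not tested. The windows shown above hold the motif for Il13, Tnf and Ptgs2, which fell, and for Il1b and Pim1, which rose. Egr3, Bcl6, Nr4a1 and Hdc fell without TATTTAT in this annotated UTR, as Tnfrsf9 and Asb2 rose without it. The shorter string ATTTA was present in Egr3, Bcl6, Nr4a1 and Tnfrsf9 and absent in Hdc and Asb2. It was found in 77.6% of the lower, 75.6% of the higher and 70.8% of all genes. A match here is a string of letters and not a site known to be bound.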

How the data were processed

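Members and gene lists were chosen with earlier results of these data known. Poly(A) RNA was alkylated with iodoacetamide and sequenced from the 3′ end (QuantSeq), per the labels' protocols. Tools named in the submitters' processing notes are STAR 2.7.10a, cutadapt 3.5 and SAMtools, with the build GRCm39. The authors deposited 1 table of 15737 genes with expected counts per library (12.8% of values are not whole), which were rounded. Its 144 other columns of per-sample values, the new-to-total ratios included, were not used here.

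Counts were filtered (filterByExpr), TMM-scaled and fitted with edgeR 4.0.16 (R 4.3.3) as 8 group means over 24 libraries; the quasi-likelihood test with Benjamini-Hochberg adjustment over 12936 genes gave the contrasts, called at an adjusted p under 0.05. SEs are the size of the log2 change over the square root of F. DESeq2 1.42.0, other filters, scalings, groups and single libraries left out were alternatives. The script was tested on simulated data. Named genes were 23 preset ones, the 12 largest rises and falls (called, mean at least 20 CPM, libraries of both times apart), up to 4 called and 2 abundant members per list (32 lists), and the 6 genes of smallest p each way for step differences; Lif, Egr2, Nr4a2, Orai1 and other genes listed to complete a count were named after their values were seen. The gene IDs of 12818 tested genes had a 3′ UTR in GENCODE M21 (GRCm38), so no genome coordinates are given.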

Additional observations from a re-analysis of the deposited data

How the results depend on the processing

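Of the genes followed one by one, 85 passed for the second hour in WT, and 69 to 85 of them did so under each alternative. Counts that moved by more than 1.5 times are given here. For the WT second hour, library size alone gave 201 higher and 140 lower genes, DESeq2 218 and 429, only the 6 libraries compared 173 lower, and leaving out single libraries 55 to 98 higher and 178 to 314 lower. Members of the 32 lists went from 13 to 27 (library size) or 21 (DESeq2) higher and from 70 to 34 lower (library size). For the second against the first hour, DESeq2 gave 126 positive and 162 negative differences, and single libraries left out 31 to 51 and 51 to 104. For TTP-KO against WT, with 0 called, DESeq2 gave 42 positive and 33 negative differences, no filter on low counts 8 and 3, and single libraries left out 0 to 15 and 0 to 3. The causes were not tested. With only the 6 libraries compared in the fit, calls were lost for Egr2, Hlx, Ccl24, Rsad2, Socs1, Slc2a1, Gpi1, Tbc1d13, Il1rl1, Irak3, Itgam, Pmaip1, Bcl2l11, Ddx6 and Zfp36l1 among the genes named. Mcpt8 changed sign with library size alone (0.0191), and Midn without WT 1 h A, where single libraries left out gave -0.0059 to 0.0859. The share of genes with TATTTAT in the 3′ UTR of the longest transcript was 35.7% of lower, 40% of higher and 30.7% of all genes. The letters A, B and C showed no pairing of the WT 1 h and 2 h libraries. Deviations from group means correlated at -0.08, -0.18 and 0.00 for same letters and at -0.10 to 0.16 for unlike letters. With 3 libraries a group, this cannot decide whether a letter marks a shared culture or mouse. A replicate block on the letters gave 96 higher and 283 lower genes, with all 85 of these calls. The 3 libraries a group limit small changes. In the 6 WT libraries compared, 3 reads are 0.11 to 0.22 CPM, and genes near that level rest on few reads.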

Other observations

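Some housekeeping groups showed no member that passed in the second hour in WT by edgeR's test. Over all tested genes only 2.10% were lower and 0.696% higher, so lists of this size would hold few calls at that share. None of 45 genes of oxidative phosphorylation passed (7 at an unadjusted p under 0.05, 0 by DESeq2), nor of 34 proteasome genes (1 and 1), 36 cell cycle genes (6 and 3), 19 heat shock genes (1 and 1), 34 genes of ribosome biogenesis (4 and 1) or 20 tRNA synthetase genes (3 and 2). Their medians lay between -0.08 for oxidative phosphorylation and 0.32 for the tRNA synthetases. With library size alone, 1 gene of oxidative phosphorylation, 2 of ribosome biogenesis, 2 tRNA synthetase and 2 cell cycle genes were higher, and these 2 medians were 0.09 and 0.50, beside 0.15 for all genes. In the cholesterol synthesis list the demethylase Cyp51 was the 1 gene of 26 that passed, with 158, 185 and 177 CPM at 1 h and 104, 79.7 and 104 CPM at 2 h (log2 change -0.85 ± 0.17, SE). In the interferon response list it was Rsad2, the antiviral enzyme viperin, 1 of 29, with 67.1, 81.9 and 52.0 CPM at 1 h and 22.1, 18.3 and 46.8 CPM at 2 h (-1.20 ± 0.26, SE), a call lost with only the 6 libraries compared in the fit.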
